A study of Homo sapiens with 18 samples.

Results

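The 32 genes described here encode the machinery that brings glucose into the cell and carries it through glycolysis, lactate formation and the pentose phosphate pathway. They were taken by name, in 5 groups: 2 glucose uptake genes, 15 genes of the glycolytic steps, 3 PFKFB genes, 8 genes that act on pyruvate and lactate, and 4 genes of the pentose phosphate pathway. Each gene was read from the brightest of the probe sets that the platform annotation maps to that gene alone. Of the 32 genes, 30 had such a probe set and 29 lay above the level set for testing, out of 19775 genes with a probe set of their own and 12376 genes tested. PDK4 lay below that level and was tested only among all probe sets, and SLC16A1 and SLC16A3 were not analysed here.

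The cells were U251, an established human glioblastoma line, grown in RPMI with serum. Cells were treated with enzastaurin, an inhibitor of protein kinase C beta and related kinases, or with DMSO, its solvent, and RNA was taken after 4, 10 and 18 h. Each of these 6 conditions has 3 arrays. The title of the series names inhibition of GSK3, death of glioma cells, MYC, NF-kB and glucose, and the labels used here do not give the dose of enzastaurin. All groups are one cell line in bulk culture, and the labels do not say that the 3 arrays of a group came from separate cultures, so the spread that the p-values rest on may be technical.

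Each of the 18 HG-U133 Plus 2.0 arrays gave 1 scaled intensity per probe set, with array medians between 99.2 and 125.9 and correlations between arrays of a group between 0.951 and 0.969. Of 7 astroglial or glioma markers, 5 lay above the level for testing (VIM, NES, CD44, SOX2 and SOX9), while GFAP and S100B stayed at or below 101.2 and 35.0 in every array. Of the markers of other cell types, 2 of 3 neuronal, 2 of 3 oligodendrocyte, 1 of 3 endothelial, 1 of 3 leukocyte and 0 of 3 epithelial genes lay above it. With enzastaurin the neuronal marker SYT1 was higher at 10 h (0.39) and 18 h (0.86), while SNAP25, the other neuronal marker tested, showed -0.03 and -0.15 and did not pass, and RBFOX3 lay below the level. NES was lower at 18 h (-0.67), and SOX2 was lower at 4 h (-0.54) and higher at 18 h (0.45), as log2 changes with adjusted p-values under the threshold. The summed intensity of the 3 neuronal markers at 18 h ran from 1027 to 1276 in enzastaurin arrays, against 756 to 846 in DMSO arrays, a difference that lay mostly in SYT1, at 760.0, 717 and 854 in enzastaurin arrays against 449, 384 and 429 in DMSO arrays. That of the 7 astroglial or glioma markers ran from 49585 to 64020.0 in enzastaurin arrays, against 61283.5 to 62318.5 in DMSO arrays. The part of these shifts in the results below, which include the neuronal genes SLC2A3 and ENO2, was not tested.

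Glucose enters glioma cells through facilitative transporters of the SLC2A family and is trapped by phosphorylation by hexokinases. Phosphofructokinase then commits it to glycolysis, and its strongest activator, fructose 2,6-bisphosphate, is made and removed by the PFKFB enzymes. Pyruvate leaves the pathway as lactate or enters mitochondria through pyruvate dehydrogenase, which the PDK kinases switch off, and the pentose phosphate pathway branches off glucose 6-phosphate to supply NADPH and ribose.

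Promoters are shown for 3 genes that changed with enzastaurin and for LDHA, which did not pass the test at any time and whose promoter holds the letters searched most often among the members. RefSeq promoters (GRCh38.p14) matched 29 of the 32 genes by symbol. Each line gives the 250 bases before the annotated start, 5′ to 3′ on the strand of the gene, all 4 on the plus strand. Capitals mark copies, on either strand, of CACGTG, the E-box of factors such as MYC, of ACGTG and of GCGTG, both cores of the hypoxia response element. Each CACGTG also holds ACGTG on both strands and so counts 2 times for it.
HK2, chr2:74833877-74834126: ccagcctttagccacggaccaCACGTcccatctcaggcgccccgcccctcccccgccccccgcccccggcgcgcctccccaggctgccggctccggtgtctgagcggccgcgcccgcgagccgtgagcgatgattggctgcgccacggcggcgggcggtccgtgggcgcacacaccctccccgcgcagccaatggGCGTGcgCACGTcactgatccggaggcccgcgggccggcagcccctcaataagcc
ENO2, chr12:6914330-6914579: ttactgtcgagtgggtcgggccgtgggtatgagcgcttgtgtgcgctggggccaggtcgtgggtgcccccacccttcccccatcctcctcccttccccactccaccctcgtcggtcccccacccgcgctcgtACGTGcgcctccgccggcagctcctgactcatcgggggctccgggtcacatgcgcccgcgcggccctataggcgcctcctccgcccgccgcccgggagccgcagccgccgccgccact
PFKFB3, chr10:6144671-6144920: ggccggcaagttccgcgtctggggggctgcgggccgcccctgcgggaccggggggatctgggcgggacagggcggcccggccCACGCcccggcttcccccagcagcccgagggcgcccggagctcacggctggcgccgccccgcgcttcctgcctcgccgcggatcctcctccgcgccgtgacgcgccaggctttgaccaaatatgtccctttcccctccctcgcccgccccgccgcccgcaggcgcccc
LDHA, chr11:18394313-18394562: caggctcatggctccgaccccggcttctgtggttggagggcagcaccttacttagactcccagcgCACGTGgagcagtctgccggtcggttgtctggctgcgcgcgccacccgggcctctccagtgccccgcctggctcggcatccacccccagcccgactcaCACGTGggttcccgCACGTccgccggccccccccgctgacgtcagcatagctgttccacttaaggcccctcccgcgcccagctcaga
HK2 had 2 copies of ACGTG and 1 of GCGTG in this window, ENO2 had 1 copy of ACGTG, and PFKFB3 had 1 of GCGTG. LDHA had 2 copies of CACGTG and 5 of ACGTG. Over the members matched, CACGTG stood in 3 of 29 windows (10.3%) and in 6.34% of 35116 promoters of the same length. ACGTG stood in 10 of 29 (34.5%) and in 18.5% of all, and GCGTG in 10 of 29 (34.5%) and in 32.2% of all. The 35116 promoters were not limited to the genes tested here, so these shares come from unlike sets of genes. These matches are descriptions of letters in a window, and TKT and PFKP, which also changed, held none of the 3.

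With enzastaurin the glucose transporter SLC2A3, the hexokinase HK2 and the enolase ENO2 were higher by 18 h, while PFKFB3, which makes the activator of phosphofructokinase, was lower at every time. The platelet-type phosphofructokinase PFKP and the transketolase TKT were lower at 18 h, and the oxidative pentose phosphate enzyme PGD passed as higher at 18 h with overlapping groups and a call that was lost on leaving out 5 of the 6 arrays one at a time. Enzastaurin minus DMSO at 4 h passed the test, an adjusted p under 0.05 by limma over all genes tested, for 1 member (lower), against 1.81% of all genes, 0.558% higher and 1.25% lower. At 10 h it passed for 2 members, 1 higher and 1 lower, against 8.45% of all genes, 3.77% higher and 4.69% lower. At 18 h it passed for 7 members, 4 higher and 3 lower, against 16% of all genes, 8.1% higher and 7.9% lower. Nothing is read from the members' count beyond this background. The median log2 change of the 29 members was 0.03 at 4 h, 0.06 at 10 h and -0.05 at 18 h, against 0.00, -0.02 and 0.00 over all genes tested. The arrays did not overlap for 2 members with higher and 1 with lower values at 4 h (9.17% and 9.13% of all genes), for 3 and 2 at 10 h (11.8% and 15%), and for 4 and 4 at 18 h (15.4% and 14.4%). In bulk arrays fewer cells of a kind and less RNA per cell cannot be told apart, for these and all genes below.

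**Figure D1:**
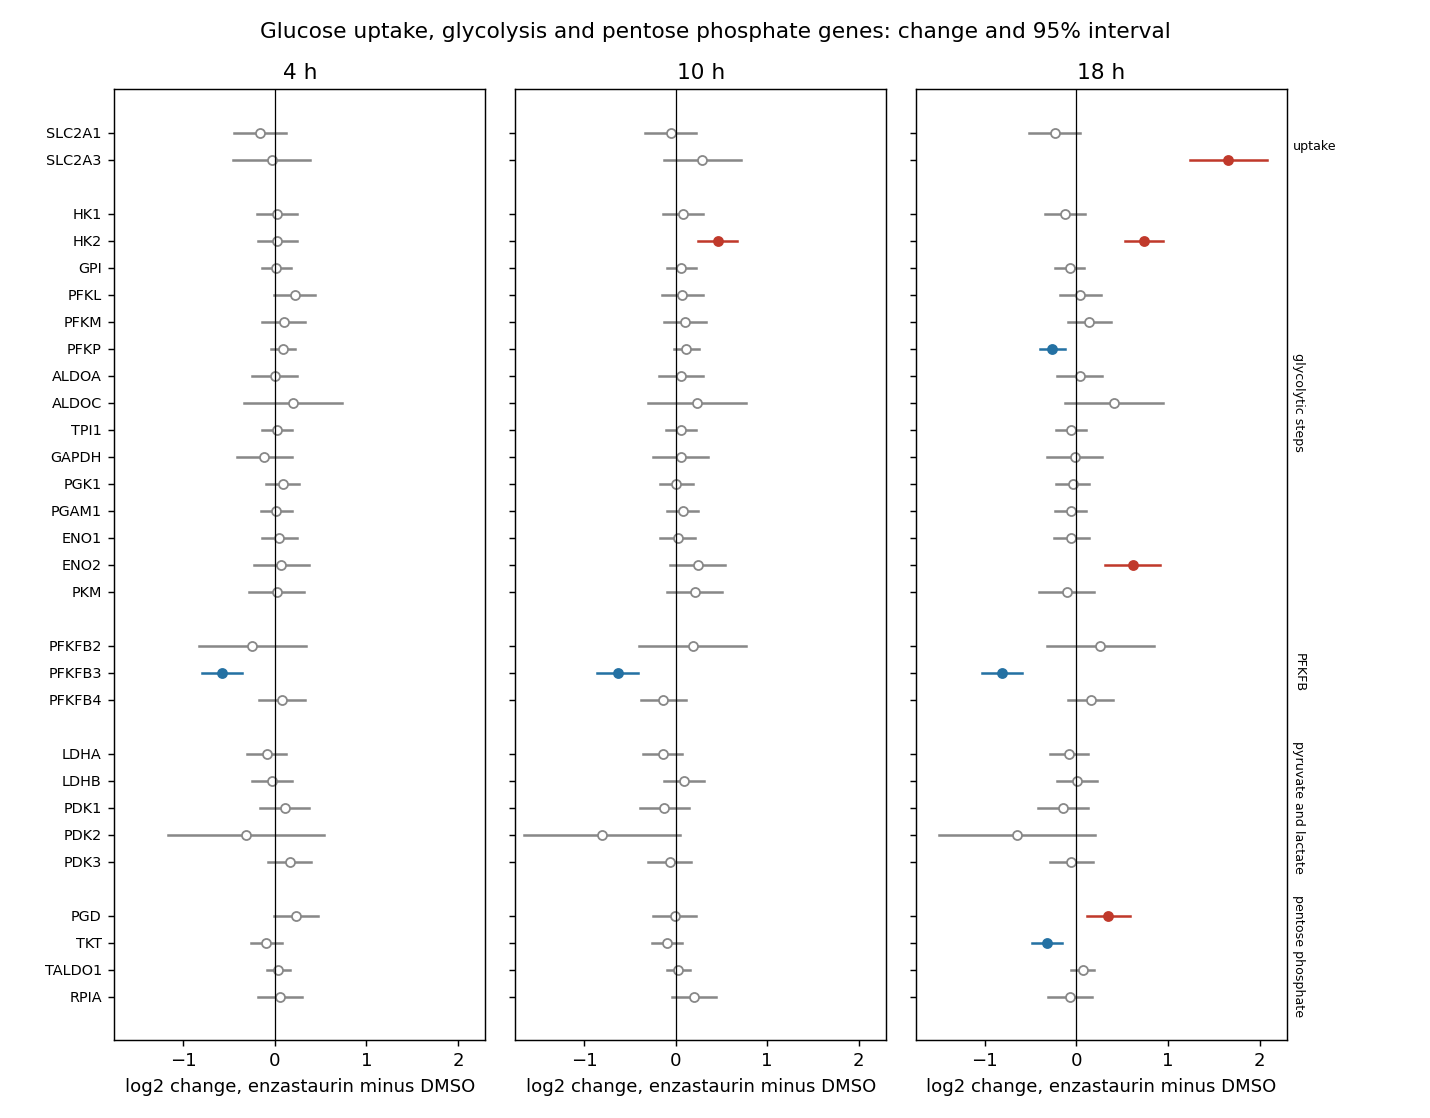
Log2 change (enzastaurin minus DMSO) of the 29 members tested, by group and time, with 95% intervals from the limma fit. Red points passed the test as higher, blue points as lower and open points did not pass. At 18 h SLC2A3 stands at 1.66 and PFKFB3 at -0.81, and most other members lie close to 0.

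SLC2A3 (probe set 202497_x_at; chr12:7919230-7936187) encodes GLUT3, a high-affinity glucose transporter abundant in neurons. At 4 h its intensity was 261, 206 and 359 in enzastaurin arrays, against 293, 330.0 and 215 in DMSO arrays. At 10 h it was 454, 566 and 409 in enzastaurin arrays, against 449, 335 and 370.0 in DMSO arrays. By 18 h it had reached 1187, 1204 and 958.5 in enzastaurin arrays, against 380.2, 267 and 389.9 in DMSO arrays. The groups overlapped at 4 and 10 h, and at 18 h all 3 enzastaurin arrays lay far above all 3 DMSO arrays. The log2 change was -0.03 at 4 h and 0.29 at 10 h, neither past the test (adjusted p = 0.972 and 0.457), and 1.66 at 18 h (SE 0.20, adjusted p = 5.59e-06), which is 3.16-fold on the scale of intensity plus 16. Its other probe sets, 202498_s_at and 202499_s_at, also rose at 18 h, by 1.94 and 2.32, and both passed the test over all probe sets already at 10 h, with changes of 0.79 and 1.01 (adjusted p = 0.00855 and 0.00227). A near-identical gene, SLC2A14, may share signal with these probe sets, so the source of the signal is uncertain between them.

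SLC2A1 encodes GLUT1, the transporter that supplies basal glucose uptake. Its mean intensity at 18 h was 1902 ± 103 in enzastaurin arrays and 2243 ± 167 in DMSO arrays (SD, n = 3 each), and the 2 groups did not overlap. The change of -0.23 did not pass the test (95% interval -0.51 to 0.05, adjusted p = 0.276), nor did those at 4 h (-0.16) and 10 h (-0.05).

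HK2 (202934_at; chr2:74834127-74893359) encodes the inducible hexokinase that binds mitochondria and is characteristic of tumour cells. Its intensity at 4 h was 926.5, 922 and 1154 in enzastaurin arrays, against 983, 968 and 974 in DMSO arrays. After 10 h it was 1070.5, 1023 and 1166 in enzastaurin arrays, against 799, 712 and 846 in DMSO arrays. After 18 h it was 1005, 919.5 and 1037 in enzastaurin arrays, against 643, 554 and 559 in DMSO arrays. The groups overlapped at 4 h and were apart at 10 and 18 h. The log2 change was 0.03 at 4 h (adjusted p = 0.948), 0.46 at 10 h (SE 0.10, adjusted p = 0.00581) and 0.74 at 18 h (SE 0.10, adjusted p = 2.36e-05). HK2 fell in DMSO between 4 and 18 h (log2 change -0.72, adjusted p = 3.47e-05), whereas in enzastaurin the change over the same interval was -0.01 (95% interval -0.22 to 0.20, adjusted p = 0.943). The enzastaurin and DMSO comparison at 18 h and the DMSO time comparison share the 3 DMSO arrays at 18 h. HK2 has 2 further probe sets that lie below the level for testing (means 80.3 and 46.8), and they showed -0.46 and -0.41 at 10 h and 0.13 and -0.18 at 18 h, none past the test. Averaging the 3 probe sets turned the 10 h change to -0.14.

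ENO2 (201313_at, its only probe set; chr12:6914580-6923697) encodes the gamma enolase known from neurons and neuroendocrine cells. At 18 h its intensity was 1162, 957 and 961 in enzastaurin arrays, against 610.2, 622 and 764 in DMSO arrays. The groups did not overlap, and the change was 0.62 (SE 0.14, adjusted p = 0.00474). At 4 h it was 628, 611 and 674 in enzastaurin arrays, against 602, 489 and 753 in DMSO arrays. At 10 h it was 604, 686 and 636 in enzastaurin arrays, against 531, 462.5 and 642 in DMSO arrays. The groups overlapped at both earlier times. Neither earlier change passed the test (0.07 and 0.24, adjusted p = 0.898 and 0.372). ENO1, the ubiquitous enolase, showed -0.05 at 18 h, with a 95% interval of -0.24 to 0.14.

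PFKP (201037_at; chr10:3067548-3136805) encodes the platelet isoform of phosphofructokinase. At 4 h its intensity was 6697.5, 6497 and 7143 in enzastaurin arrays, against 6067, 6268 and 6782 in DMSO arrays, and the groups overlapped. At 10 h it was 4873, 4792 and 4852 in enzastaurin arrays, against 4623, 4497 and 4254 in DMSO arrays, and at 18 h 3557, 3272 and 3838 in enzastaurin arrays, against 4180.2, 4295 and 4296 in DMSO arrays. The enzastaurin arrays were all above the DMSO arrays at 10 h and all below them at 18 h. The change at 18 h was -0.26 (SE 0.06, adjusted p = 0.00756), after 0.09 at 4 h and 0.12 at 10 h, neither past the test (adjusted p = 0.621 and 0.317). PFKP declined over time in both arms, with a log2 change of -0.93 between 4 and 18 h in enzastaurin (adjusted p = 9.66e-10) and of -0.58 in DMSO (adjusted p = 2.10e-06). Its dimmer probe set showed -0.06 at 18 h and did not pass, and averaging both sets gave -0.16 (adjusted p = 0.428). The liver and muscle isoforms PFKL and PFKM showed 0.05 and 0.14 at 18 h, with 95% intervals of -0.18 to 0.27 and -0.09 to 0.37.

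The other glycolytic step genes did not pass the test at any time between enzastaurin and DMSO. At 18 h these 12 genes had changes between -0.12 and 0.42, and their 95% intervals lay between -0.41 (lower bound of PKM) and 0.95 (upper bound of ALDOC). Among them, GAPDH, the glyceraldehyde phosphate dehydrogenase, read 29946, 37642 and 48675 in enzastaurin arrays at 18 h, against 43732, 35251 and 37028 in DMSO arrays. PKM, a pyruvate kinase gene, read 21471, 21987 and 31259.8 in enzastaurin arrays, against 25157, 25688 and 28396 in DMSO arrays. For both genes the groups overlapped. HK1, the housekeeping hexokinase, showed -0.12, the isomerase GPI -0.07, the aldolase ALDOA 0.04, and the triose phosphate isomerase TPI1 -0.06. PGK1, the first kinase of the pathway to yield ATP, showed -0.04 and the mutase PGAM1 -0.06. PGK1 has 6 probe sets, of which 1558365_at passed the test over all probe sets, with 0.60 at 10 h (adjusted p = 0.0463) and 0.39 on the average of the times (0.00899), and the other 5 did not. ALDOC, the brain aldolase, was dim, at 223 ± 51 in enzastaurin arrays and 169.9 ± 70.9 in DMSO arrays (SD, n = 3 each). Several of these genes have processed pseudogenes or close relatives, and where the probe set can bind both, the signal is uncertain.

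At 18 h the third enzastaurin array was the highest of its group for all 9 members whose mean intensity exceeded 10000 (ALDOA, TPI1, GAPDH, PGK1, PGAM1, ENO1, PKM, LDHB and TKT), and the first was the lowest for 8 of them. The ratio of array 3 to array 1 ran from 1.16 to 1.63 with a median of 1.30, against a median of 1.18 over 796 probe sets this bright and 1.04 over all probe sets. VIM, which is no member, had a ratio of 1.46. Of these members only TKT passed the test at 18 h, and its call held on leaving out each of the 6 arrays in turn (adjusted p up to 0.0427). At 10 h the third enzastaurin array was also the highest of its group for all of these 9 members except TKT. GAPDH, for example, read 42384 there, against 31762 and 32498 in the other enzastaurin arrays. At 4 h the second DMSO array was the lowest of its group for all 9, with GAPDH at 34384.5 against 42644 and 38860. The part of these array differences in the changes at 4 and 10 h was not tested.

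PFKFB3 (202464_s_at, its only probe set; chr10:6144921-6326637) encodes the PFKFB isoform with the highest kinase activity, which raises fructose 2,6-bisphosphate. At 4 h its intensity was 1675, 1508 and 1369 in enzastaurin arrays, against 2311, 2399 and 2083 in DMSO arrays. At 10 h the values were 1657, 1570.2 and 1264 in enzastaurin arrays, against 2182, 2449 and 2310.0 in DMSO arrays. At 18 h they were 1488.5, 1304 and 1116 in enzastaurin arrays, against 2258, 2304 and 2280.3 in DMSO arrays. All 9 enzastaurin arrays lay below all 9 DMSO arrays. PFKFB3 fell with enzastaurin, with log2 changes of -0.57 at 4 h (SE 0.11, adjusted p = 0.00403), -0.63 at 10 h (adjusted p = 0.000583) and -0.81 at 18 h (adjusted p = 1.41e-05), the last a ratio of 0.57 on the scale of intensity plus 16. The difference between the 18 h and 4 h effects was -0.24 (95% interval -0.55 to 0.08, adjusted p = 0.408) and did not pass. The call at 4 h was lost when each array's median was subtracted (-0.46, adjusted p = 0.151), a setting that moved the median 4 h change of all genes to 0.12.

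PFKFB4, an isoform known from tumours, averaged 475.5 ± 15 in enzastaurin arrays and 425 ± 17.3 in DMSO arrays at 18 h (SD, n = 3 each). These arrays did not overlap, but the change of 0.16 did not pass the test (95% interval -0.09 to 0.40, adjusted p = 0.447). PFKFB2, the heart isoform, was dim, with means of 177 ± 8.77 in enzastaurin arrays and 147 ± 36.7 in DMSO arrays, and a change of 0.26 with a 95% interval of -0.32 to 0.85. Its dimmer probe sets, all below the level for testing, showed 0.80, -1.51 and -0.60 at 18 h. None passed by limma over all probe sets (adjusted p = 0.389, 0.132 and 0.585), so the direction for PFKFB2 is uncertain.

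**Figure D2:**
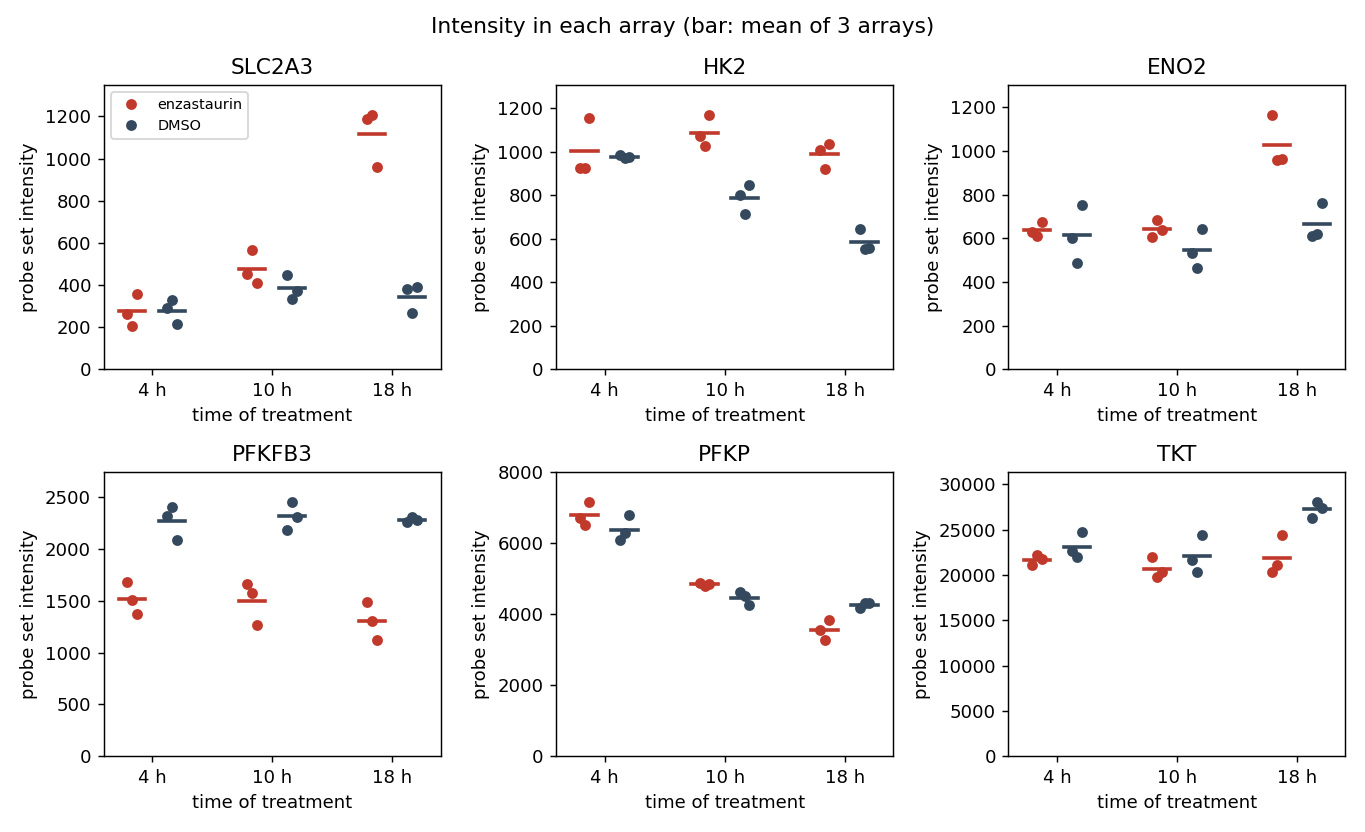
Intensity of 6 members in each of the 18 arrays, by time, enzastaurin in red left of DMSO in dark blue, with bars at the mean of 3 arrays and axes starting at 0. SLC2A3 and ENO2 stand apart at 18 h, HK2 at 10 and 18 h, and PFKFB3 at all 3 times, while PFKP declines in both arms.

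No member of the pyruvate and lactate group passed the test between enzastaurin and DMSO at any time, of 5 tested by limma. Read from their brightest probe sets, none of the 5 had an unadjusted p under 0.05 at 4, 10 or 18 h. Further genes that act on pyruvate, such as PDHB and PDP1, did pass and are described below. LDHA, which reduces pyruvate to lactate, averaged 1417 ± 82.8 in enzastaurin arrays and 1513 ± 272 in DMSO arrays at 18 h (SD, n = 3 each), a change of -0.08 with a 95% interval of -0.29 to 0.13. LDHB, the other lactate dehydrogenase subunit, showed 0.00 (-0.21 to 0.22). PDK1 and PDK3, kinases that inhibit pyruvate dehydrogenase, showed -0.14 and -0.05. A dimmer probe set of PDK3 showed -0.89 at 18 h and did not pass by limma over all probe sets (unadjusted p = 0.0112, adjusted p = 0.142). Other dimmer sets of PDK3 showed -0.01, -0.13 and -0.03. PDK2, another such kinase with a change of -0.59 on the average of the times (adjusted p = 0.0946), read 209.8, 255 and 67.8 in enzastaurin arrays at 18 h, against 246, 210.2 and 313 in DMSO arrays. These groups overlapped, and the change of -0.64 carried the widest interval of the members tested (-1.49 to 0.21). The dimmer probe set of PDK2, below the level for testing, showed -1.23 at 18 h. It did not pass by limma over all probe sets (unadjusted p = 0.0472, adjusted p = 0.325). PDK4, the starvation-induced kinase, lay below the level for testing, with 35.3, 35.1 and 33.3 in enzastaurin arrays at 18 h, against 107, 75.8 and 75.8 in DMSO arrays. Those arrays did not overlap, and over all probe sets the change of -1.0 did not pass (adjusted p = 0.164). Its other 2 probe sets, also below the level, showed 0.11 and -0.07 at 18 h and did not pass.

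TKT (208700_s_at; chr3:53224712-53256022) encodes transketolase, which links the pentose phosphate pathway back to glycolysis. At 4 h its intensity was 21118.5, 22179.6 and 21726 in enzastaurin arrays, against 22623, 21937 and 24754 in DMSO arrays. At 10 h it was 21946, 19762 and 20359 in enzastaurin arrays, against 21593, 20369 and 24414 in DMSO arrays, and at 18 h 20338, 21064 and 24349 in enzastaurin arrays, against 26251, 28025 and 27393 in DMSO arrays. The groups overlapped at 4 and 10 h and not at 18 h, where the change was -0.32 (SE 0.08, adjusted p = 0.00800), after -0.09 at 4 h and -0.09 at 10 h, neither past the test. Both other probe sets of TKT were lower at 18 h as well, with changes of -0.36 (208699_x_at, adjusted p = 0.0136) and -1.03 (228205_at, adjusted p = 4.34e-06), over all probe sets. The dimmest of the 3, 228205_at, also passed at 10 h (-0.44, adjusted p = 0.0426). In DMSO arrays TKT rose between 4 and 18 h (0.24, adjusted p = 0.0383), and in enzastaurin arrays the change was 0.01 (95% interval -0.15 to 0.18). The rise in DMSO did not pass when 1 array was left out, whichever it was except the third DMSO array at 4 h (adjusted p up to 0.138).

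PGD (201118_at; chr1:10399064-10420511) encodes phosphogluconate dehydrogenase, which makes NADPH in the oxidative branch. At 4 h its intensity was 4552, 4521 and 5141 in enzastaurin arrays, against 3739.6, 4454 and 3911.5 in DMSO arrays, and at 10 h 4155, 4163 and 4770.5 in enzastaurin arrays, against 4000.4, 4491 and 4696.5 in DMSO arrays. The groups were apart at 4 h and overlapped at 10 h, and neither change passed the test (0.23 at 4 h and -0.01 at 10 h). At 18 h its intensity was 6124, 6443 and 6842 in enzastaurin arrays, against 4242, 4772 and 6449.5 in DMSO arrays. At 18 h the third DMSO array lay above the first 2 enzastaurin arrays, so the groups overlapped. The change was 0.35 (SE 0.11, adjusted p = 0.0411), and the call was lost on leaving out each array in turn except the third DMSO array, with an adjusted p of up to 0.244. TALDO1, the transaldolase, showed 0.07 at 18 h (95% interval -0.05 to 0.19). RPIA, the ribose phosphate isomerase, showed -0.07 (-0.31 to 0.17).

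Over the average of the 3 times, 6 members passed the test, 4 higher and 2 lower, against 18.5% of all genes, 9.07% higher and 9.44% lower. SLC2A3 (0.64, adjusted p = 0.000459), HK2 (0.41, 3.43e-05), ENO2 (0.31, 0.0116) and PGD (0.19, 0.0482) were higher. PFKFB3 (-0.67, adjusted p = 9.73e-08) and TKT (-0.17, 0.0133) were lower. With array medians subtracted the call of TKT on the average was lost (-0.13, adjusted p = 0.160). With the mean over probe sets those of HK2 (0.17, adjusted p = 0.477) and PGD (0.01, 0.950) were lost. On leaving out each of the 18 arrays in turn, the call of PGD was lost in 14 cases (adjusted p up to 0.110) and held without DMSO array 2 at 4 h, 3 at 10 h or 3 at 18 h, or enzastaurin array 1 at 18 h.

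**Figure D3:**
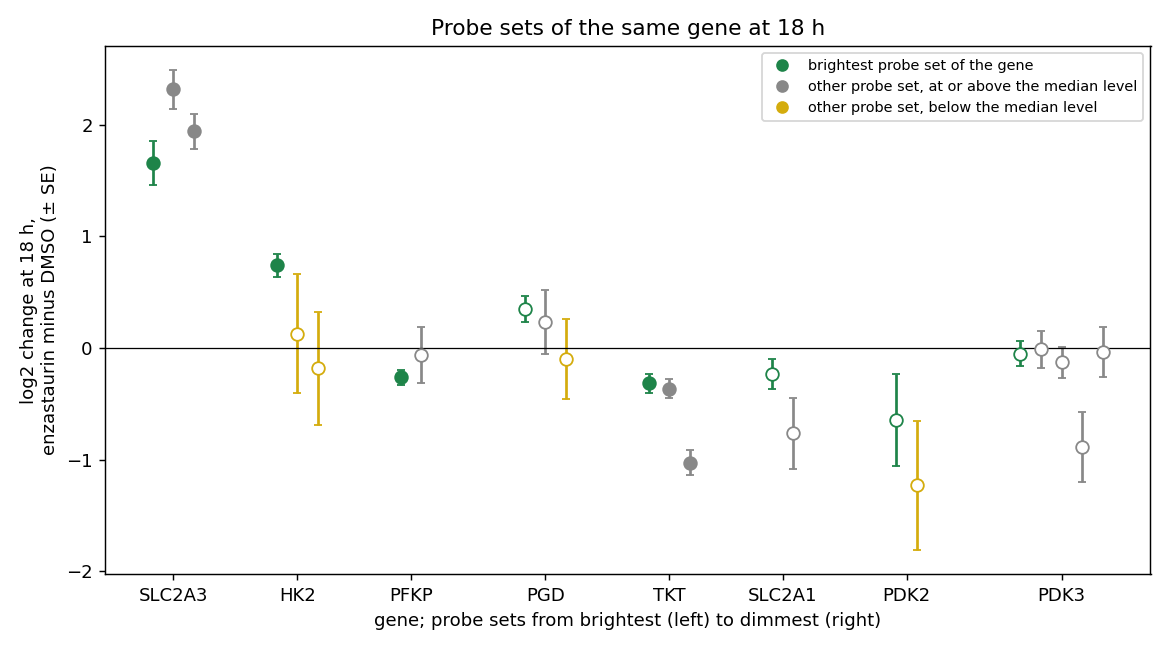
Log2 change at 18 h (enzastaurin minus DMSO, with SE) of each probe set of 8 members, from brightest on the left to dimmest on the right within a gene. Filled points passed the test over all probe sets. The 3 probe sets of SLC2A3 lie between 1.66 and 2.32 and those of TKT between -1.03 and -0.32, while the dim probe sets of HK2 lie near 0 with wide errors.

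Of the 30 members with a probe set, 20 had more than 1, with 70 probe sets in all, and the plot of probe sets of the same gene shows where they differ. The brightest set of PGD, which passed over genes, did not pass over all probe sets (adjusted p = 0.107), and the dimmer sets showed 0.24 and -0.09 at 18 h. For SLC2A1 the dimmer set showed -0.77 (adjusted p = 0.241). None of these dimmer sets passed.

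The enzastaurin effect differed between 18 and 4 h for 3 members, 2 with a higher and 1 with a lower effect, against 7.78% of all genes, 4.07% higher and 3.71% lower. Between 18 and 10 h it differed for 2 members, 1 higher and 1 lower, against 2.23%, 1.33% higher and 0.905% lower. SLC2A3 had an effect of 1.66 at 18 h and -0.03 at 4 h, a difference of 1.69 (adjusted p = 0.000675), and the 18 h effect exceeded the 10 h effect by 1.36 (adjusted p = 0.0121). HK2 had 0.74 at 18 h and 0.03 at 4 h, a difference of 0.71 (adjusted p = 0.00320). With array medians subtracted the HK2 difference did not pass (0.59, adjusted p = 0.0549), and with the mean over probe sets it was -0.18. PFKP differed by -0.35 between 18 and 4 h (adjusted p = 0.0212) and by -0.38 between 18 and 10 h (adjusted p = 0.0304). The call of PFKP between 18 and 10 h held only without DMSO array 1 at 10 h or enzastaurin array 3 at 18 h and was lost in the other 10 of 12 cases (adjusted p up to 0.0885). That between 18 and 4 h was lost without the first DMSO array at 4 h, the third enzastaurin array at 4 h or the second enzastaurin array at 18 h (adjusted p up to 0.0613). Between 10 and 4 h no member's effect differed by limma, against 1.41% of all genes, 0.808% higher and 0.598% lower, with 1 member at an unadjusted p under 0.05.

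In enzastaurin arrays 3 members were higher and 4 lower at 18 h than at 4 h, against 30% of all genes, 16.4% higher and 13.6% lower. SLC2A3 rose by 1.99 (adjusted p = 2.17e-07), ENO2 by 0.67 (adjusted p = 0.00126) and PGD by 0.45 (adjusted p = 0.00470). PFKP (-0.93), RPIA (-0.52), PFKFB4 (-0.44) and PFKL (-0.34) were lower. At 10 h 1 member was higher than at 4 h (SLC2A3, 0.78) and 2 were lower (PFKP, -0.48, and PFKFB4, -0.59), against 17.2% of all genes, 10.2% higher and 6.92% lower. The 10 h call of SLC2A3 was lost without the second enzastaurin array at 4 h or the second at 10 h (adjusted p up to 0.0711), that of PFKL at 18 h without the first enzastaurin array at 4 h or at 18 h (up to 0.112), and that of PFKFB4 at 18 h without the second enzastaurin array at 4 h (0.0515).

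In DMSO arrays 2 members were higher and 4 lower at 18 h than at 4 h, against 20.3% of all genes, 11.3% higher and 9% lower. PGD (0.33) and TKT (0.24) were higher, and HK2 (-0.72), PFKP (-0.58), PFKFB4 (-0.51) and RPIA (-0.40) were lower. The call of PGD was lost without DMSO array 1 or 3 at 4 h or 2 or 3 at 18 h (adjusted p up to 0.293), and that of RPIA without the first DMSO array at 4 h or the third at 18 h (up to 0.111). The count fell to 3 without either of these 2 arrays. At 10 h 5 members were lower than at 4 h, against 18.1% of all genes, 11.5% higher and 6.61% lower. They were PFKP (-0.51), SLC2A1 (-0.46), PKM (-0.44), PFKFB4 (-0.37) and HK2 (-0.31). The second DMSO array at 10 h read 15356 for PKM, against 22847 and 24464 in the other 2, and the call of PKM was lost without it (adjusted p up to 0.260 over the 3 arrays whose removal ended the call, the others being DMSO arrays 1 and 3 at 4 h). SLC2A1 lost its call without DMSO array 2 or 3 at 4 h or 1 at 10 h (up to 0.138), HK2 with every array left out except the third at 10 h (up to 0.170), and PFKFB4 with every array left out except the second at 10 h (up to 0.188). The count was 1 without the third DMSO array at 4 h, 2 without the first or second at 4 h or the first at 10 h, 3 without the second at 10 h and 4 without the third at 10 h, and the call of PFKP held in all 6 cases.

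A further 43 genes of the same pathways were taken by name, and 40 of them had a probe set and 27 were tested. None passed at 4 h by limma, and none had an unadjusted p under 0.05. At 10 h 1 was higher and 2 were lower, and at 18 h 3 were higher and 5 lower, beside the same backgrounds of 8.45% and 16%. At 10 h 7 had an unadjusted p under 0.05, and the share of all genes at that threshold was not computed. The median change of the 27 further genes tested was 0.01 at 4 h, 0.04 at 10 h and 0.03 at 18 h.

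HKDC1, a hexokinase domain gene, read 343, 413 and 303 in enzastaurin arrays at 18 h, against 144, 64.5 and 124 in DMSO arrays, a change of 1.59 (adjusted p = 0.000261). PDP1, a phosphatase that switches pyruvate dehydrogenase back on, read 4833, 4878 and 4604 in enzastaurin arrays, against 2393, 2485.5 and 2425 in DMSO arrays, a change of 0.97 (adjusted p = 2.41e-08). SLC2A8, the transporter GLUT8, read 1288, 1261 and 1151 in enzastaurin arrays, against 830.0, 781 and 729.6 in DMSO arrays. None of these groups overlapped. SLC2A8 rose by 0.65 at 18 h (adjusted p = 0.000294) and by 0.45 at 10 h (adjusted p = 0.0151), and the 10 h call was lost without the second DMSO array or the third enzastaurin array at 10 h (up to 0.0740). PDP1 also rose in DMSO between 4 and 18 h (0.84), and by 1.79 in enzastaurin.

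PDHB, the beta subunit of the first pyruvate dehydrogenase enzyme, read 2941, 3222 and 3165 in enzastaurin arrays at 18 h, against 4164, 4510.3 and 4542 in DMSO arrays, with no overlap. PDHB fell, with log2 changes of -0.50 at 18 h (adjusted p = 1.37e-05) and -0.32 at 10 h (adjusted p = 0.00334). With array medians subtracted, the 10 h calls of PDHB (-0.30, adjusted p = 0.0712), SLC2A8 (0.46, 0.0849) and MPC2 (-0.22, 0.248) were lost. Smaller falls at 18 h were seen for PGM2 (-0.34), a phosphoglucomutase family enzyme, BPGM (-0.28), the bisphosphoglycerate mutase, DLD (-0.21), the shared dehydrogenase subunit of pyruvate dehydrogenase, and MPC2 (-0.18), a subunit of the mitochondrial pyruvate carrier that was also lower at 10 h (-0.23). The call of MPC2 at 18 h was lost on leaving out each of the 6 arrays in turn (adjusted p up to 0.161), and that at 10 h without the first or second DMSO array or the first enzastaurin array (up to 0.105). At 18 h BPGM lost its call without the second DMSO array or the first enzastaurin array or the third (up to 0.157), PGM2 without the first DMSO or the third enzastaurin array (up to 0.118), and DLD without the third enzastaurin array (0.0777). These 3 genes and MPC2 also lost their 18 h calls with array medians subtracted (adjusted p = 0.120 to 0.252) and with only the groups compared in the fit (0.0645 to 0.141). The effect differed between 18 and 4 h for PDP1 (0.95), HKDC1 (1.72) and PDHB (-0.49), and between 18 and 10 h for PDP1 (0.76). With the mean over the probe sets of HKDC1 its difference was 0.62 and did not pass (adjusted p = 0.271), and that of PDP1 between 18 and 10 h did not pass with array medians subtracted (0.0518).

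On the average of the 3 times 4 of the 27 further genes tested were higher and 5 lower. Over all genes the share was 18.5%, 9.07% higher and 9.44% lower. The 4 higher were SLC2A8 (0.42), HKDC1 (0.65), PDP1 (0.39) and PGM1 (0.15, adjusted p = 0.0130), another phosphoglucomutase. PGM1 passed at none of the single times, and its call on the average held on leaving out each of the 18 arrays in turn. The 5 lower on the average were PDHB (-0.28), PGM2 (-0.19), BPGM (-0.17), MPC2 (-0.12) and DLD (-0.11), of which the last lost its call without DMSO array 2 at 10 h or enzastaurin array 2 at 4 h (adjusted p up to 0.0593). With array medians subtracted the calls of PGM2, BPGM, MPC2 and DLD on the average were lost (0.241 to 0.501).

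Over time in enzastaurin arrays, 8 of the 27 further genes tested were higher and 4 lower at 18 h than at 4 h. Over all genes the share was 30%, 16.4% higher and 13.6% lower. The higher ones were PDP1 (1.79), HKDC1 (1.01), SLC2A8 (0.73), RPE (0.54), SHPK (0.45), MPC1 (0.41), TIGAR (0.32) and MPC2 (0.25), and the lower ones PRPS2 (-0.56), PGLS (-0.48), PDHB (-0.40) and PGM1 (-0.29). RPE and PGLS act in the pentose phosphate pathway, SHPK feeds it with sedoheptulose phosphate, PRPS2 uses its ribose phosphate, TIGAR removes fructose 2,6-bisphosphate, and MPC1 is the partner of MPC2. In DMSO arrays over the same interval 5 were higher, RPE (0.57), SHPK (0.53), MPC1 (0.38), MPC2 (0.47) and PDP1 (0.84). PGLS (-0.40), PRPS2 (-0.31) and PGM1 (-0.25) were the 3 lower, against 20.3% of all genes, 11.3% higher and 9% lower. Between 4 and 10 h, 5 were higher and 4 lower in enzastaurin arrays, against 17.2% of all genes, 10.2% higher and 6.92% lower. PDP1 (0.83), SLC2A8 (0.47), TIGAR (0.44), BPGM (0.28) and PDHX (0.19), a structural subunit of pyruvate dehydrogenase, were higher, and PGLS (-0.33), PDHB (-0.26), PRPS2 (-0.25) and PGM1 (-0.20) were lower. In DMSO arrays 6 were higher at 10 h, PDP1 (0.64), RPE (0.61), BPGM (0.37), MPC2 (0.37), TIGAR (0.35) and PDHX (0.17). The 3 lower were the transporter gene SLC2A6 (-0.73), PGM1 (-0.30) and PGLS (-0.29), against 18.1% of all genes, 11.5% higher and 6.61% lower. These time changes of further genes were not recomputed under the alternative settings.

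**Figure D4:**
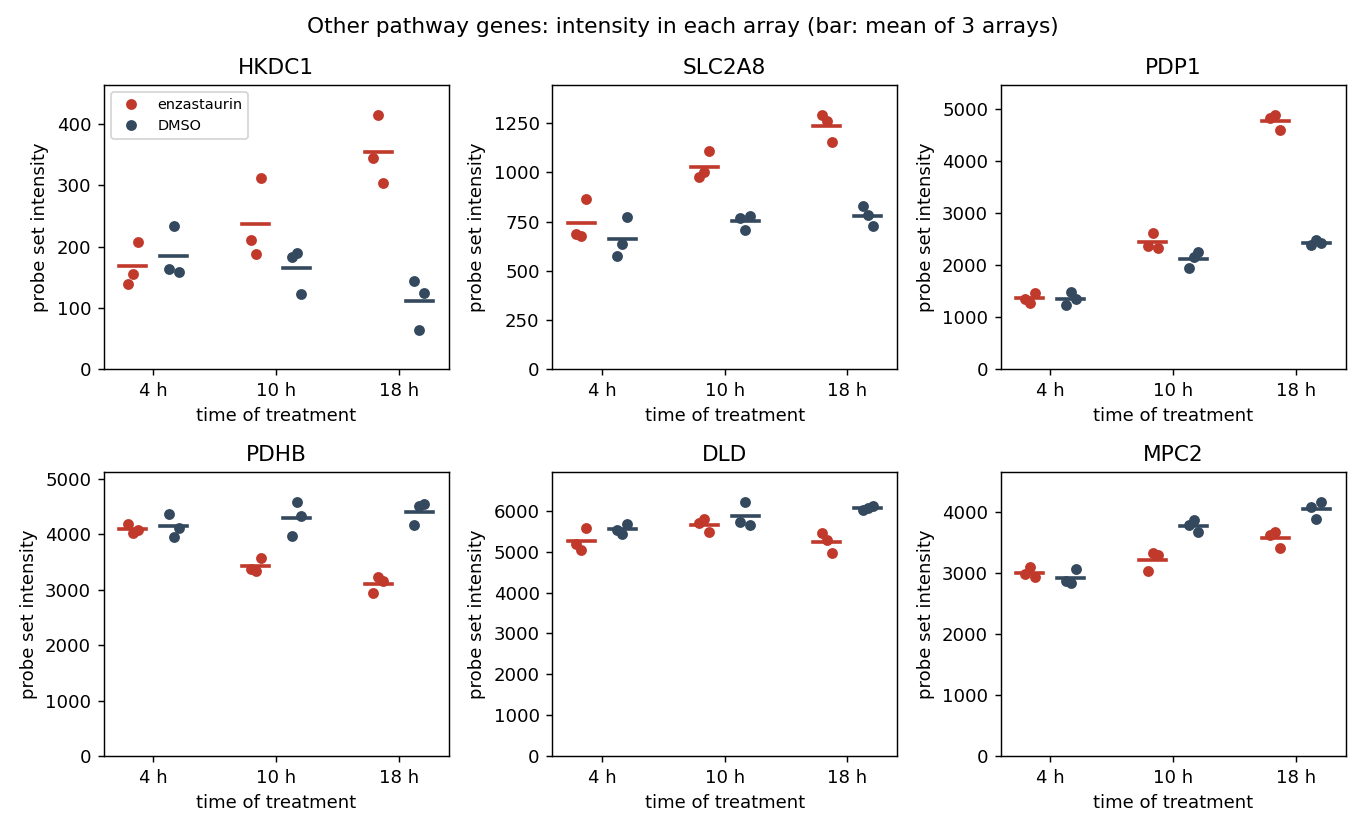
Intensity of 6 further pathway genes in each of the 18 arrays, by time, enzastaurin in red left of DMSO in dark blue, with bars at the mean of 3 arrays and axes starting at 0. HKDC1, SLC2A8 and PDP1 are higher and PDHB, DLD and MPC2 lower in enzastaurin at 18 h, with no overlap of arrays.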

How the data were processed

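The deposited table gives linear signal intensities made by the authors with GCOS 1.2, per the submitters' processing notes, for 54613 probe sets on 18 arrays. Its trimmed means (2% off each end) lie between 498.2 and 498.5 per array, which shows a scaling common to all arrays. Detection calls were not used. Symbols came from the platform annotation, updated by gene identifier to RefSeq (GRCh38.p14). Per gene, the probe set with the highest mean of log2(intensity + 16) was kept, and genes under the median level of all probe sets (intensity 102.0) were left out. Group means were fitted with limma 3.58.1 (R 4.3.3), all 18 arrays in 1 fit, with empirical Bayes moderation and a trend, and Benjamini-Hochberg adjustment over the 12376 genes of a comparison. The fit was also run on simulated data with noise drawn separately for each gene. Those data held no shifts shared by genes of an array, so nothing is concluded from them about such shifts. The number of arrays limits the precision. Members and gene lists were chosen with earlier results of these data known, all members are named, and further pathway genes are named where they passed. Alternatives were offsets of 1 and 64, no filter, quantile normalization, array medians subtracted, mean or every probe set, replicate block, only the groups compared, and each array left out. Deviations from the group mean were correlated between enzastaurin and DMSO arrays of the same time. The correlations ran from -0.0814 to 0.0544 for the same replicate number and from -0.1359 to 0.1011 for other numbers. They showed no pairing by number within a time, and pairing across times was not tested. Figures were drawn with matplotlib 3.10.9.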

Additional observations from a re-analysis of the deposited data

Results flagged for a closer look

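For these genes the effect of enzastaurin differed between times by the test of the difference itself (adjusted p by limma over all genes tested). The effect on SLC2A3 at 18 h exceeded that at 4 h by 1.69 (adjusted p = 0.000675) and that at 10 h by 1.36 (adjusted p = 0.0121), on the log2 scale. HK2 differed by 0.71 between 18 and 4 h (adjusted p = 0.00320). This HK2 difference did not pass with array medians subtracted (0.59, adjusted p = 0.0549) and turned to -0.18 with the mean over probe sets (0.850). For PFKP the difference was -0.35 between 18 and 4 h (adjusted p = 0.0212) and -0.38 between 18 and 10 h (adjusted p = 0.0304). Both PFKP differences were fragile. The one between 18 and 10 h did not pass in 10 of 12 fits that left out 1 array, nor with array medians subtracted (adjusted p = 0.286), the mean over probe sets (0.236), only the groups compared (0.0564) or every probe set (0.101). The one between 18 and 4 h did not pass with array medians subtracted (-0.47, adjusted p = 0.0580) or every probe set (0.0651). It turned to 0.15 with the mean over probe sets. Among the further pathway genes, PDP1 differed by 0.95 between 18 and 4 h (adjusted p = 1.28e-05) and by 0.76 between 18 and 10 h (adjusted p = 0.000696). The PDP1 difference between 18 and 10 h did not pass with array medians subtracted (0.74, adjusted p = 0.0518). HKDC1 differed by 1.72 (adjusted p = 0.00706; 0.62 and 0.271 with the mean over its probe sets) and PDHB by -0.49 (adjusted p = 0.00198), both between 18 and 4 h.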

How the results depend on the processing

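Of 42 calls of members over all comparisons, 42 kept direction and call with an offset of 1 or 64, 41 with quantile normalization, 37 with only the groups compared, 35 with no filter, 32 with every probe set on its own, 27 with array medians subtracted and 24 with the mean over probe sets. With the replicate block all 42 held and the counts of members called stayed at 1, 2 and 7 at 4, 10 and 18 h. The replicate numbers showed no pairing of enzastaurin with DMSO arrays within a time. Outside the members, MPC2 at 18 h lost its call with the replicate block (adjusted p = 0.0583). Averaging the probe sets of a gene, dim ones included, reversed HK2 at 10 h (-0.14), the differences between 18 and 4 h of HK2 (-0.18) and PFKP (0.15), HK2 in DMSO between 4 and 18 h (0.30) and PFKP in enzastaurin between 4 and 10 h (0.011), and no averaged value of these passed the test. It gave counts of 4 at 18 h, 3 for DMSO at 10 against 4 h and 5 for enzastaurin at 10 against 4 h. Subtracting array medians gave 0 members at 4 h, 1 for the difference between 18 and 4 h, 1 between 18 and 10 h, 1 for DMSO at 10 against 4 h, 3 for DMSO at 18 against 4 h, and 12 for enzastaurin at 18 against 4 h, 10 of them lower, and gave 79 calls at 4 h over all genes tested, against 224. Without the filter, DMSO at 10 against 4 h gave 2 members, and with every probe set 1. The difference between 18 and 10 h gave 1 member with only the groups compared and with every probe set. PGD at 18 h also lost its call with no filter (adjusted p = 0.0690), with array medians (0.108), with only the groups compared (0.101), with every probe set (0.107) and with the mean over probe sets (0.509), and PFKP with array medians (0.10) and the mean (0.428). HK2 at 18 h fell to 0.23 with the mean (0.611). Leaving out each array in turn gave 1 to 1 members at 4 h, 2 to 2 at 10 h, 6 to 7 at 18 h, 5 to 7 for the average, 1 to 2 and 2 to 4 for the differences of 18 h from 10 and 4 h, 1 to 4 and 3 to 5 for DMSO at 10 and 18 h against 4 h, and 2 to 4 and 6 to 9 for enzastaurin at 10 and 18 h against 4 h. Where these settings changed a call, the cause was not tested beyond what each setting leaves out. With 3 arrays per group, the widest 95% intervals at 18 h among members that did not pass reached 0.95 (ALDOC) and -1.49 (PDK2), and others were narrower, such as -0.05 to 0.19 for TALDO1.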
